A study of Mus musculus with 12 samples.

Results

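Glutamate and GABA signalling was followed through 32 genes of newborn mouse prefrontal cortex, chosen by gene name. The list held 4 AMPA, 5 kainate and 5 NMDA receptor subunit genes, 5 metabotropic glutamate receptor genes, 8 GABA-A receptor subunit genes, the GABA synthesis genes Gad1 and Gad2, the vesicular GABA transporter gene Slc32a1, and the vesicular glutamate transporter genes Slc17a6 and Slc17a7. All 32 were present among the 18879 genes of the deposited single-cell table.

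Glutamate is the main excitatory transmitter of the cortex and GABA the main inhibitory one. A neuron that makes GABA needs glutamate decarboxylase (GAD67 from Gad1, GAD65 from Gad2) and loads the product into vesicles with VGAT (Slc32a1), whereas glutamatergic neurons load glutamate with VGLUT2 (Slc17a6) or VGLUT1 (Slc17a7). Released glutamate opens ion channels assembled from AMPA, kainate or NMDA subunits and acts on G protein-coupled metabotropic receptors, while GABA opens chloride channels assembled from GABA-A subunits, and the subunit composition of these channels changes as the cortex matures.

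The study asked what the loss of one or both copies of the neuronal transcription factor gene Myt1l does to cells of the cortex. Mice, labelled C57BL/6J and described as C57BL/6N in the study's methods, carried a small CRISPR/Cas9-made deletion in a coding exon of Myt1l that shifts the reading frame, and prefrontal cortices were taken at P0, the day of birth, from wild-type (WT), heterozygous (HET) and homozygous (HOM) animals with no other treatment. A shortened protein that does not reach the nucleus was described for this allele, and HOM pups die after birth. For each genotype, cells of a pair of animals were pooled, fixed in methanol and loaded on one lane of a 10x Genomics 5′ assay, and the animals of a pool cannot be separated in the files used here. The 12 deposited samples were 4 sequencing runs of each of 3 libraries, so each genotype was 1 library, no difference between genotypes has a replicate check, and no p-value is given.

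The WT, HET and HOM libraries held 10503, 12072 and 13688 cells with a median of 1045, 1099 and 1330 molecules per cell. Of the excitatory neurons, 25%, 28.9% and 41.2% had at least 2000 molecules, and their median share of mitochondrial molecules was 6.04%, 6.14% and 3.93%. The deposited cell table and the study's own legend give the same 3 cell numbers to the genotypes in different orders, and directions below rest on the labels in the cell table. Myt1l transcript in excitatory neurons was 529 in the library labelled WT, 680 in HET and 1096 in HOM, in the unit defined below. A frameshift need not lower transcript counts, so this gives no check of the labels and says nothing of the protein. The libraries also differed in sex-linked transcripts: 2121 cells of the WT library held Xist transcript against 2 and 1 of the others, and 603, 1865 and 2086 cells held a Y-linked transcript. Genotype therefore cannot be told apart from sex composition, lane or pool of animals. The members Gria3 and Gabra3 lie on the X chromosome.

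Levels are given as depth-corrected CPM, the summed value of a gene over the cells of a type per 1000000 of all values in those cells. The deposited values appear from their totals per cell to have been corrected for depth before deposit, so they are not raw molecule counts, and levels are compared between cell types and libraries for one gene, not between genes. Cell types carry the authors' names and cluster tags. A class level averages the types of a class with the same weights in every library, over 4 types of excitatory neurons, 6 of inhibitory neurons and 3 of glia (immature astrocytes and oligodendrocytes). Marker lists that contained no member matched the class in 4 of 4 excitatory and 6 of 6 inhibitory types, although the type named Striatal inh2 [7-P] was led by cortical interneuron markers and the type named Astrocytes (immature) 2 [13-P] was led narrowly by oligodendrocyte-lineage markers. Microglia and endothelial cells, which should lack most neuronal transcripts, served to show how much free RNA a cell of another type carried.

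MYT1L binds DNA through an AAAGTT core, and the start regions of the genes were searched for it. RefSeq promoter windows (GRCm38.p6, 250 bases before to 50 bases after a gene's start) were found for 25 of the 32 members. The motif AAAGTT, or AACTTT when read on the other strand, occurred in a window of 5 of the 25 (20.0%), against 4291 of 27025 genes (15.9%). Grin3a, Grik1, Gria3, Grin2b, Grin2a, Grm5 and Gria1 had no entry. The 60 bases around each of the matches are shown because they are the only members in which the letters occurred, 5′ to 3′ on the gene's strand, with the match in capitals:
Gabra3 chrX:72656818-72656877 (-): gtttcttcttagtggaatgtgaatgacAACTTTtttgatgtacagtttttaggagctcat
Gabrb1 chr5:71699801-71699860 (+): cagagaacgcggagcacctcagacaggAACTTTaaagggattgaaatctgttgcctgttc
Grin2d chr7:45866808-45866867 (-): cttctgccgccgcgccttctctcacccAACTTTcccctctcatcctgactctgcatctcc
Grm3 chr5:9725537-9725596 (-): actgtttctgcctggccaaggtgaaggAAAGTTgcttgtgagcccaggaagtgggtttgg
Grm8 chr6:28134445-28134504 (-): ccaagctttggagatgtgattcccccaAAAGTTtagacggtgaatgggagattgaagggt

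The matches began 43 bases before a listed start of Gabra3, 104 before one of Gabrb1, 159 for Grin2d, 217 for Grm3 and 56 for Grm8. The matched windows of Gabrb1, Grin2d and Grm8 lay inside the annotated genes, so their starts are internal. Gabra3, Gabrb1 and Grm8 also had windows at other starts, without a match. Of the genes with a match, Gabra3 and Grm3 did not pass the rule for a difference between genotypes described below where it could be applied. Gabrb1, Grin2d and Grm8 had too few cell types with a sufficient sum in every class, so the rule could not be applied to them. The motif therefore cannot be set against the calls here. For comparison, the whole windows of the 3 genes that separated inhibitory from excitatory neurons and of Grik5, which passed the rule for a difference in most comparisons, are given too. No AAAGTT or AACTTT occurred in them, which says only that these letters are not in these 300 bases:
Gad1 chr2:70561879-70562178 (+): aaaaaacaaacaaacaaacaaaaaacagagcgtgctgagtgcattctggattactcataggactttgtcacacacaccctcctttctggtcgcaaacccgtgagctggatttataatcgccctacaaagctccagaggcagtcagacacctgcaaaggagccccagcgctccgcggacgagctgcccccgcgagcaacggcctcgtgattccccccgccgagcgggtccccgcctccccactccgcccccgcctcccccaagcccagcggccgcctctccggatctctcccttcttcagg
Gad2 chr2:22622077-22622376 (+): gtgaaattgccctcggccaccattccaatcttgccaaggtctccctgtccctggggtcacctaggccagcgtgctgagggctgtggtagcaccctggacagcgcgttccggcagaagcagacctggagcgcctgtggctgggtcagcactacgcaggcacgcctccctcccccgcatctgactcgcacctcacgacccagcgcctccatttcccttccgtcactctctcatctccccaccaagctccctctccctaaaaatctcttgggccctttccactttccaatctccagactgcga
Slc32a1 chr2:158610508-158610807 (+): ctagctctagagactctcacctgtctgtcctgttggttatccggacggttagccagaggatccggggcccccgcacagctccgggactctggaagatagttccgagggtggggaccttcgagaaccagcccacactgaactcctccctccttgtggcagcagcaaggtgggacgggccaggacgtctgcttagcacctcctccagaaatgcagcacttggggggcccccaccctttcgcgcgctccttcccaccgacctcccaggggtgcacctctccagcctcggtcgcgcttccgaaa
Grik5 chr7:25072320-25072619 (-): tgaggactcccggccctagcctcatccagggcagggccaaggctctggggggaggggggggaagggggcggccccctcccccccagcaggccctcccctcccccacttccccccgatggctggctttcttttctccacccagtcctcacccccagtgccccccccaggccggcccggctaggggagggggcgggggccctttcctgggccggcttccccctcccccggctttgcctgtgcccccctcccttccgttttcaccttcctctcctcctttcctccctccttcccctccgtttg

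The members were unevenly detected at birth. Gria2, the AMPA subunit that makes the channel impermeable to calcium, was above 0 in 12134 of the 36263 cells (33.5%), Grin2b, the NMDA subunit of the immature cortex, in 16.6% and Gad2 in 11.3%. At the other end, Grin2d was above 0 in 129 cells (0.356%) with a summed value of 145, and Grm2, Grm8, Gabra4 and Grin2a summed to 230, 260, 272 and 316. Statements on these rare genes are limited by that depth. For 17 of the 32 members the cell type with the highest level was the same in all 3 libraries.

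**Figure D1:**
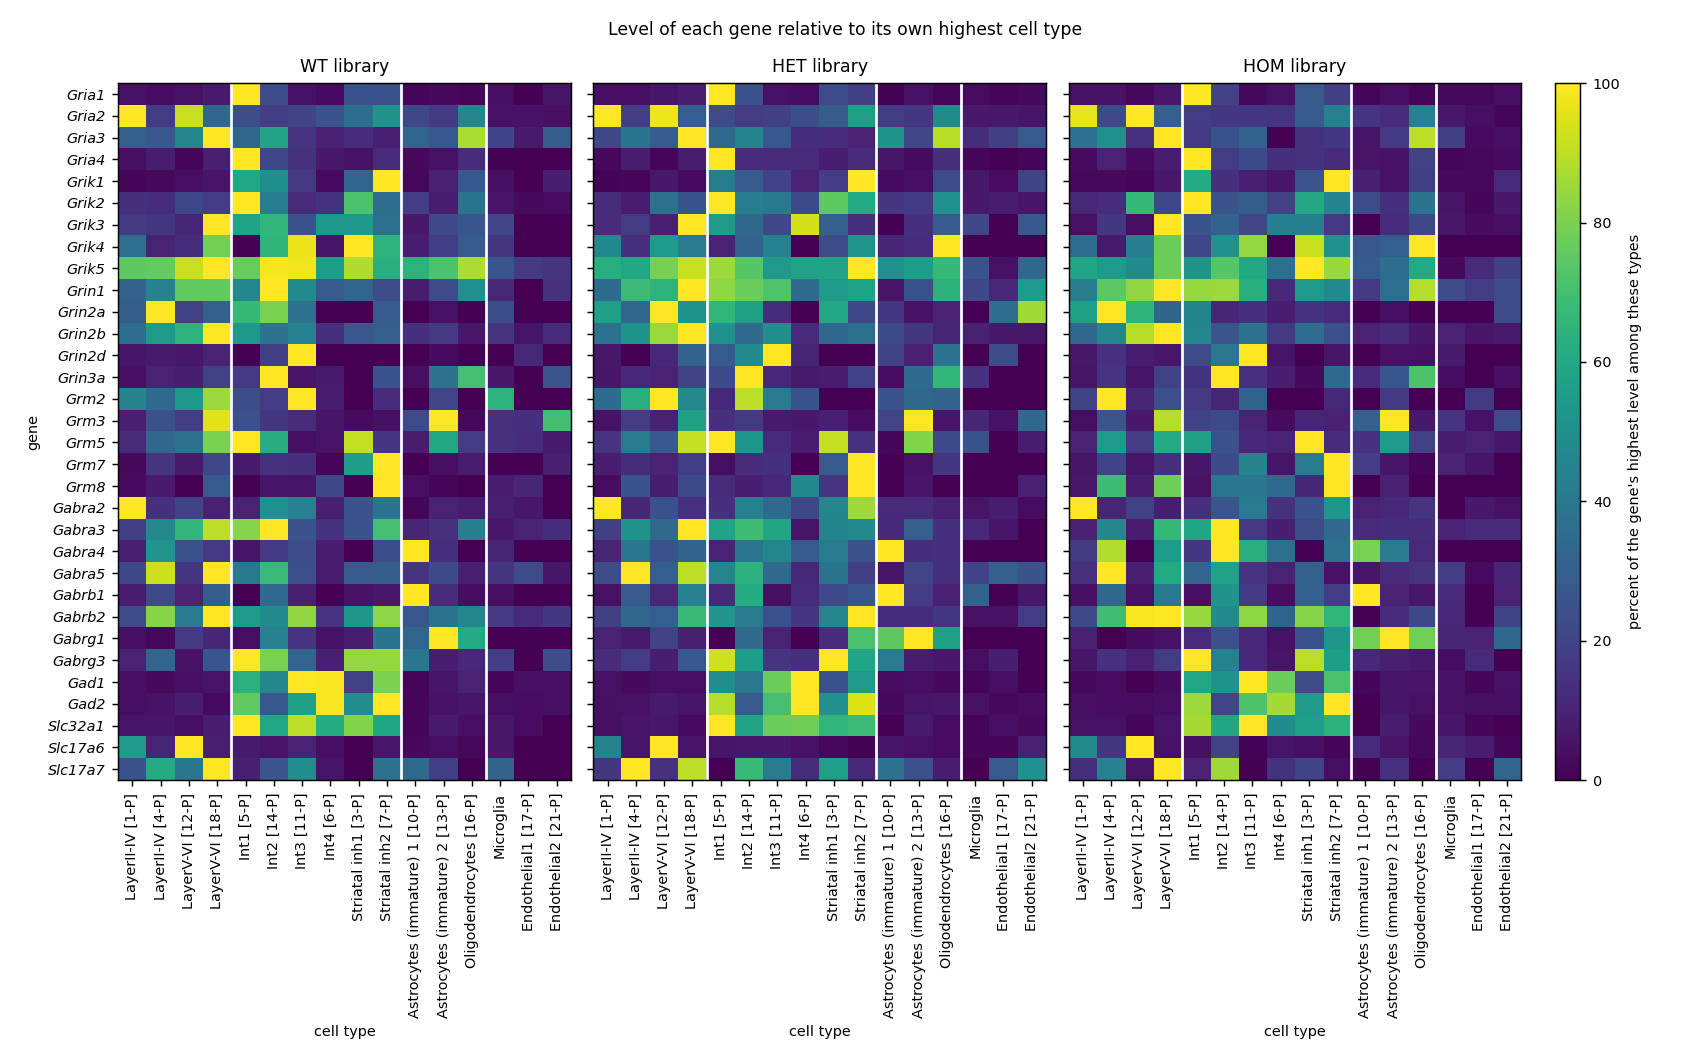
Level of each of the 32 genes in 16 cell types of the 3 libraries, as a percent of the gene's highest level among these types in that library; white lines part excitatory, inhibitory, glial, and microglia and endothelial types. Gad1, Gad2 and Slc32a1 are bright across the inhibitory block in each library, whereas most receptor genes are bright in 1 or 2 types.

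The genes for making and packaging GABA marked the inhibitory neurons. Gad1 had a class level of 276, 239 and 253 in inhibitory neurons of the WT, HET and HOM libraries against 16.2, 15.5 and 10.4 in excitatory neurons and 12.2, 7.40 and 15.2 in microglia and endothelial cells. Gad2 stood at 439, 464 and 463 in inhibitory neurons against 25.7, 30.9 and 25.1 in excitatory neurons, with 22.0, 22.8 and 26.0 in the microglia and endothelial cells. Slc32a1 stood at 127, 133 and 122 against 10.1, 7.20 and 8.42, with 6.30, 4.86 and 5.11 in microglia and endothelial cells. The excitatory level lay above that of these cells in the WT and HET libraries for each of the 3 genes, and below it in HOM for Gad1 and Gad2.

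Within the inhibitory class the 3 genes were ordered differently. Gad1 was highest in Int3 [11-P] (394, 316 and 391) or Int4 [6-P] (392, 407 and 302) and lowest in Striatal inh1 [3-P] (75.9, 103 and 90.2). Gad2 reached 621, 589 and 643 in Striatal inh2 [7-P] and was lowest in Int2 [14-P] (170, 173 and 134), where it lay below Gad2 of every other inhibitory type. Slc32a1 varied least, between 100 and 170 in the WT library.

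Genes were also compared type by type, counting a gene as inhibitory if each of the 6 inhibitory types lay above each of the 4 excitatory types in a library. In the WT library 3 of 28 measured members met this (Gad1, Gad2 and Slc32a1), against 1.35% of all genes measured. In the HET library 4 of 31 met it (the same 3 and Grik1, background 1.67%) and in the HOM library 4 of 31 (the same 3 and Gria4, background 1.42%). No receptor gene met it in all 3 libraries. In the opposite direction, 0 of the 32 members lay above in each excitatory type in any of the 3 libraries, where 2.34% of all genes measured did so in at least 1 library. These are counts of separated types with no test.

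The vesicular glutamate transporter genes did not cover the excitatory types in this way at birth. Slc17a6 was highest in the migrating cells of the subventricular zone, SVZ1 [2-P], at 305, 364 and 260. This type is outside the excitatory class used here, but its leading marker list was that of excitatory layer neurons, followed by intermediate progenitors. Slc17a6 followed with 172, 236 and 194 in LayerV-VI [12-P] and 93.2, 106 and 92.9 in LayerII-IV [1-P]. In the other excitatory types it was low: LayerII-IV [4-P] had 17.8, 14.2 and 31.7, and LayerV-VI [18-P] had 15.4, 12 and 8.93. The highest Slc17a6 level among microglia and endothelial types was 11.2, 21.6 and 21.2. LayerII-IV [4-P] and LayerV-VI [18-P] were also shallow: 9.5% and 14.4% of their WT cells had at least 2000 molecules. In WT this share was 71.8% in SVZ1 [2-P], 43.6% in LayerV-VI [12-P] and 36.5% in LayerII-IV [1-P]. The part of depth in this split was not tested. Slc17a7, which dominates in the mature cortex, was scarce everywhere, with 349 as its sum over all cells and 23.4, 23.0 and 29.8 in LayerV-VI [18-P]. In the interneuron type Int2 [14-P], either transporter gene was above 0 in 1.67% (0.545 to 3.86), 2.25% and 4.75% (3.20 to 6.75) of cells, the summed level of excitatory markers there was 405, 292 and 307, and that of interneuron markers was 619, 569 and 580.

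**Figure D2:**
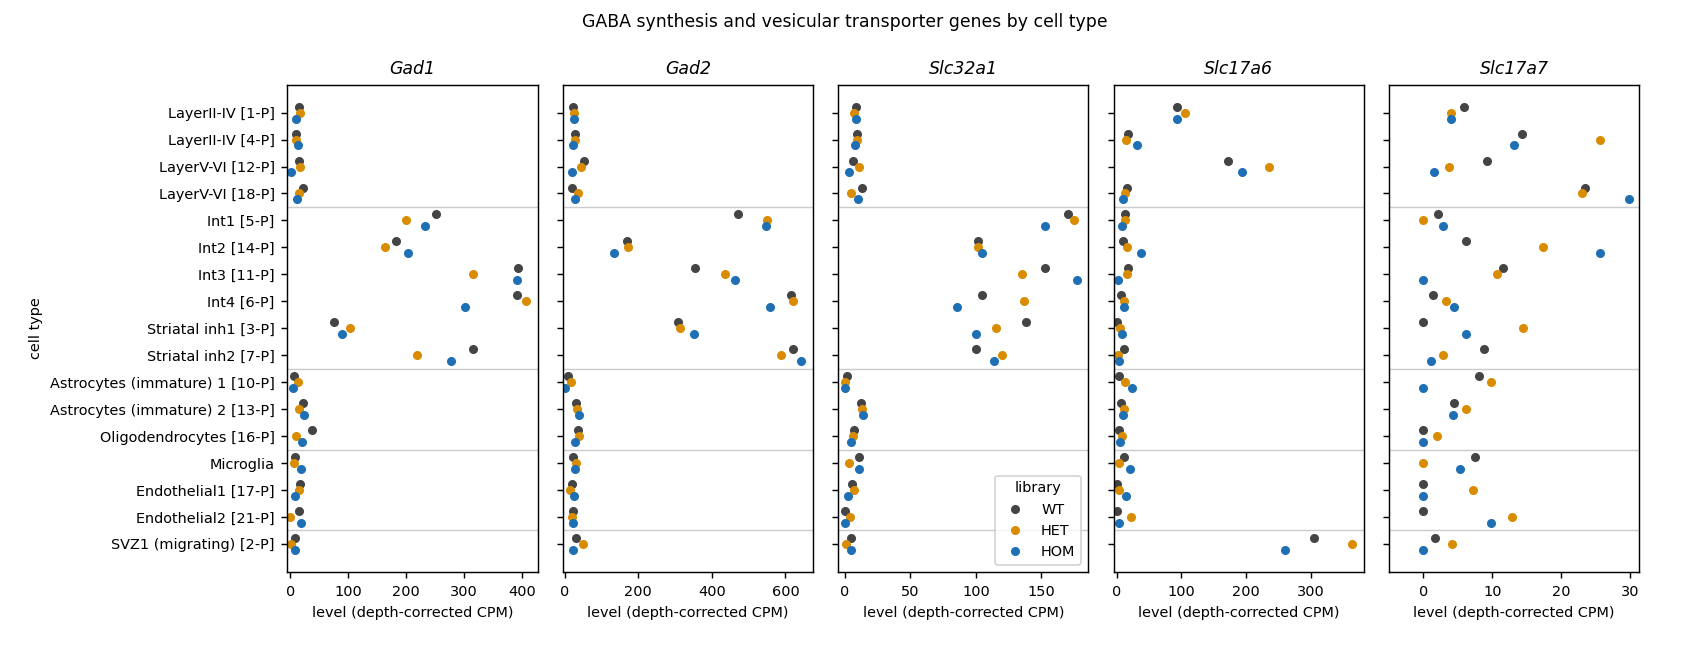
Level in depth-corrected CPM (x axis) of Gad1, Gad2, Slc32a1, Slc17a6 and Slc17a7 by cell type (y axis), 1 point per library and no error bar because each genotype was 1 library. Gad1, Gad2 and Slc32a1 stand to the right in the 6 inhibitory types, and Slc17a6 stands out in SVZ1 [2-P], LayerV-VI [12-P] and LayerII-IV [1-P].

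In single cells with at least 2000 molecules, 79.9%, 81.2% and 80.0% of inhibitory neurons of the WT, HET and HOM libraries were above 0 for Gad1, Gad2 or Slc32a1 (exact 95% binomial intervals 77.2 to 82.4, 78.8 to 83.3 and 78.0 to 81.9, which here and below cover counting error only). The corresponding shares were 2.23%, 3.11% and 2.84% of excitatory neurons and 3.65%, 3.65% and 3.64% of microglia and endothelial cells, so the excitatory share did not exceed background. Without the limit on molecules, 54.4%, 54.6% and 54.6% of inhibitory neurons were above 0. Slc17a6 or Slc17a7 was above 0 in 17.3%, 19.2% and 15.9% of the deep excitatory neurons, in 1.18%, 0.826% and 1.55% of the inhibitory ones and in 0%, 1.04% and 1.09% of the microglia and endothelial cells (0 of 137 cells in WT, with an exact upper limit of 2.66%, or 2.19% by the rule of 3 counts, for cells with a detected transcript). In SVZ1 [2-P] these shares were 40.0% (36.3 to 43.7), 45.4% (40.7 to 50.2) and 33.6% (29.9 to 37.4). Cells above 0 for a GABA gene and a glutamate transporter gene together made up 0.279%, 0.406% and 0.310% of deep excitatory and 1.07%, 0.661% and 0.931% of deep inhibitory neurons.

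**Figure D3:**
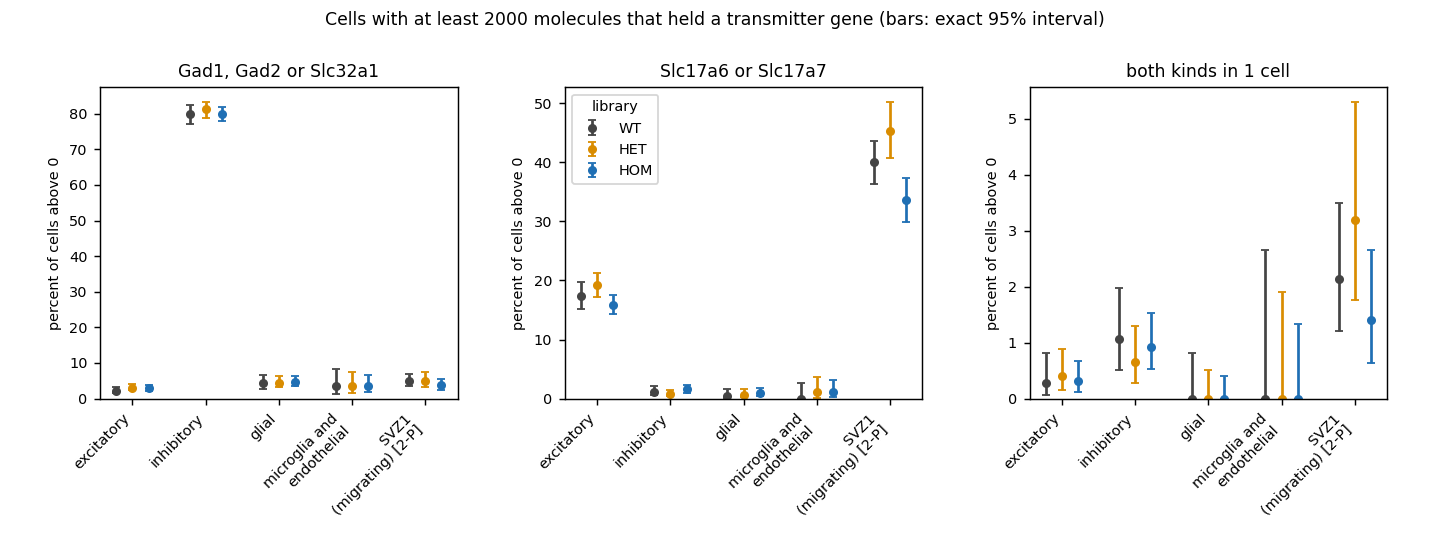
Share of cells with at least 2000 molecules (y axis, percent; exact 95% intervals as bars) above 0 for a GABA gene, a vesicular glutamate transporter gene or both, by group of cells and library. About 80% of inhibitory neurons held a GABA gene in each library, whereas no group other than SVZ1 [2-P] exceeded 20% for the glutamate transporters.

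Among AMPA receptor genes, Gria2 stood apart from the others in where it was found. It was highest in SVZ1 [2-P] (2051, 2041 and 2362), LayerII-IV [1-P] (1635, 1611 and 1632) and LayerV-VI [12-P] (1507, 1573 and 1693), and was between 292 and 374 in LayerII-IV [4-P]. The last was the shallowest excitatory type in each library, and the part of depth in its Gria2 level was not tested. Gria1 and Gria4, by contrast, peaked in the interneuron type Int1 [5-P], Gria1 at 785, 675 and 746 and Gria4 at 485, 457 and 445. Among the other neuronal and glial types of the 3 classes Gria4 reached at most 105, in Int2 [14-P] of the WT library. Gria3 was highest in LayerV-VI [18-P] (74.3, 76.7 and 84.0) and in oligodendrocytes (64.8, 68.4 and 75.6).

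Kainate receptors combine the subunits of Grik1 to Grik3 with the auxiliary high-affinity subunits of Grik4 and Grik5. Grik2 was highest in Int1 [5-P] (213, 144 and 146) and Grik1 in Striatal inh2 [7-P] (87.2, 106 and 109), while Grik3 led in LayerV-VI [18-P] (89.0, 62.4 and 81.6). Grik5 was spread more evenly, from 54.3 in Int4 [6-P] to 97.1 in LayerV-VI [18-P] across the 13 neuronal and glial types of the WT library.

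Of the NMDA receptor genes, Grin1 encodes the obligatory subunit and Grin2b and Grin2a encode the immature and mature glutamate-binding partners. Grin2b was highest in LayerV-VI [18-P] at 590, 480 and 489. Grin1 had its class levels at 52.6, 40.4 and 39.8 in excitatory and 47.7, 39.8 and 33 in inhibitory neurons. Grin2a was near the limit of detection, with 6.66, 11.0 and 16.2 in excitatory neurons. Grin3a, whose subunit lowers calcium entry, was highest in Int2 [14-P] (111, 94.1 and 78.2), followed by oligodendrocytes (78.4, 62.3 and 56.3). Grin2d, a subunit of interneurons, was highest in Int3 [11-P] at 48.9, 15.9 and 37.6.

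The metabotropic receptors differed by class. Grm3, a presynaptic and astrocytic receptor, was highest in Astrocytes (immature) 2 [13-P] (158, 218 and 156), followed by LayerV-VI [18-P] (151, 125 and 139). The highest Grm3 level among microglia and endothelial types was 110, 73.4 and 35.8, so its background was high and differed between libraries. Grm5, which couples to calcium release, was spread over Int1 [5-P] (209, 172 and 114), Striatal inh1 [3-P] (190, 156 and 201), LayerV-VI [18-P] (167, 157 and 123) and Astrocytes (immature) 2 [13-P] (125, 140 and 110). Grm7 and Grm8, presynaptic autoreceptors, were both highest in Striatal inh2 [7-P], Grm7 at 85.0, 76.7 and 79.6 and Grm8 at 50.1, 46.3 and 19.1. Grm2 did not exceed 29.1 in any type of the 3 classes.

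The GABA-A subunit genes were divided among cell types as well. Gabra2 was highest in LayerII-IV [1-P] (166, 132 and 149). Gabra5, the subunit of extrasynaptic receptors, was found in LayerV-VI [18-P] (118, 106 and 97.1) and LayerII-IV [4-P] (109, 117 and 159). Gabrg3 led in Int1 [5-P] in the WT library (62.1, with 79.9 and 82.4 in the others). The glial types held Gabrb1, with 97.3, 65.2 and 67.1 in Astrocytes (immature) 1 [10-P], and Gabrg1, with 55.9, 56.4 and 48.9 in Astrocytes (immature) 2 [13-P]. Gabra3 and Gabrb2 showed no type with a distinct peak: in the WT library Gabra3 was 55.7 in Int2 [14-P] and 50.2 in LayerV-VI [18-P], and Gabrb2 was 44.9 in LayerV-VI [18-P] and 37.4 in Int3 [11-P]. Gabra4 had its highest level, 36.5, in Astrocytes (immature) 1 [10-P] of the WT library. By position, Gabrg1, Gabra2, Gabra4 and Gabrb1 are neighbours on chromosome 5 (70751047 to 72149037, mm10) and Gabra5 and Gabrg3 on chromosome 7 (56716465 to 57510059).

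For the genotypes, a gene was taken as measured in a class if its values in the WT and mutant libraries summed to at least 50 and were above 0 in both. A gene was taken as lower or higher if its class level differed by at least 0.32 on the log2 scale and each cell type with a sum of at least 50, of which at least 2 were needed, moved the same way. HET and HOM were both set against the same WT library, so their values are not independent of each other.

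In the library labelled HET, 20 of 30 members measured in excitatory neurons lay below WT (66.7%, median log2 ratio -0.07), against 60.5% of all genes with a median of -0.09. In inhibitory neurons 14 of 27 lay below (51.9%, -0.05, all genes 54.9% and -0.04) and in glia 12 of 21 (57.1%, -0.06, all genes 52.5% and -0.02). The list as a whole was therefore close to the background. The rule was passed by 3 of 18 members in excitatory neurons, 0 of 15 in inhibitory neurons and 2 of 6 in glia, all of them lower. The background of lower calls was 19.0%, 9.16% and 9.35% in these classes. Higher calls numbered 0 in each class, against 6.39%, 5.77% and 8.34% of all genes. Under median-of-ratios scaling, which removes a shift common to most genes, the direction in excitatory neurons turned: 43.3% of the members lay below WT (median 0.03), with 50.4% of all genes, Grik5 was the 1 member called there, and all genes split into 11.8% higher and 12.1% lower.

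In the library labelled HOM, 20 of 29 members measured in excitatory neurons lay below WT (69.0%, median log2 ratio -0.19), against 61.9% and -0.13 for all genes. In inhibitory neurons 17 of 28 lay below (60.7%, -0.09, all genes 61.7% and -0.12) and in glia 15 of 21 (71.4%, -0.14, all genes 62.2% and -0.14). Calls were made for 3 of 16, 1 of 16 and 2 of 6 members, again all lower, where 24.6%, 16.3% and 19.7% of all genes were called lower. For higher calls the members gave 0 in each class and all genes 10.4%, 8.97% and 11.5%. Below WT in both mutant libraries were 16 of 29 members in excitatory neurons, 12 of 27 in inhibitory neurons and 11 of 21 in glia, and above WT in both were 5, 8 and 5. Median-of-ratios scaling turned the glial direction, with 47.6% of members below WT, and split all genes in excitatory neurons, inhibitory neurons and glia into 18.2%, 15.3% and 23.7% higher and 15.8%, 10.4% and 10.6% lower. Under that scaling Gria3 was called higher in excitatory neurons (39.2 in WT and 48.1 in HOM under the main scaling) and Gad1 lower, while Grik5 and Grin1 lost their calls.

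Transcript length moved with these ratios for genes in general. Of all genes with transcripts longer than the upper quartile, 83.7% lay below WT in excitatory neurons of the HET library and 83.0% in those of the HOM library, against 30.7% and 32.1% of those shorter than the lower quartile. The members were long, with a median longest transcript of 5002 nt against 3443 nt for all genes (GENCODE M21 annotation) and a median gene span of 216373 against 25005 bp. The part of length and of the deeper HOM library in the ratios of the members was not tested.

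**Figure D4:**
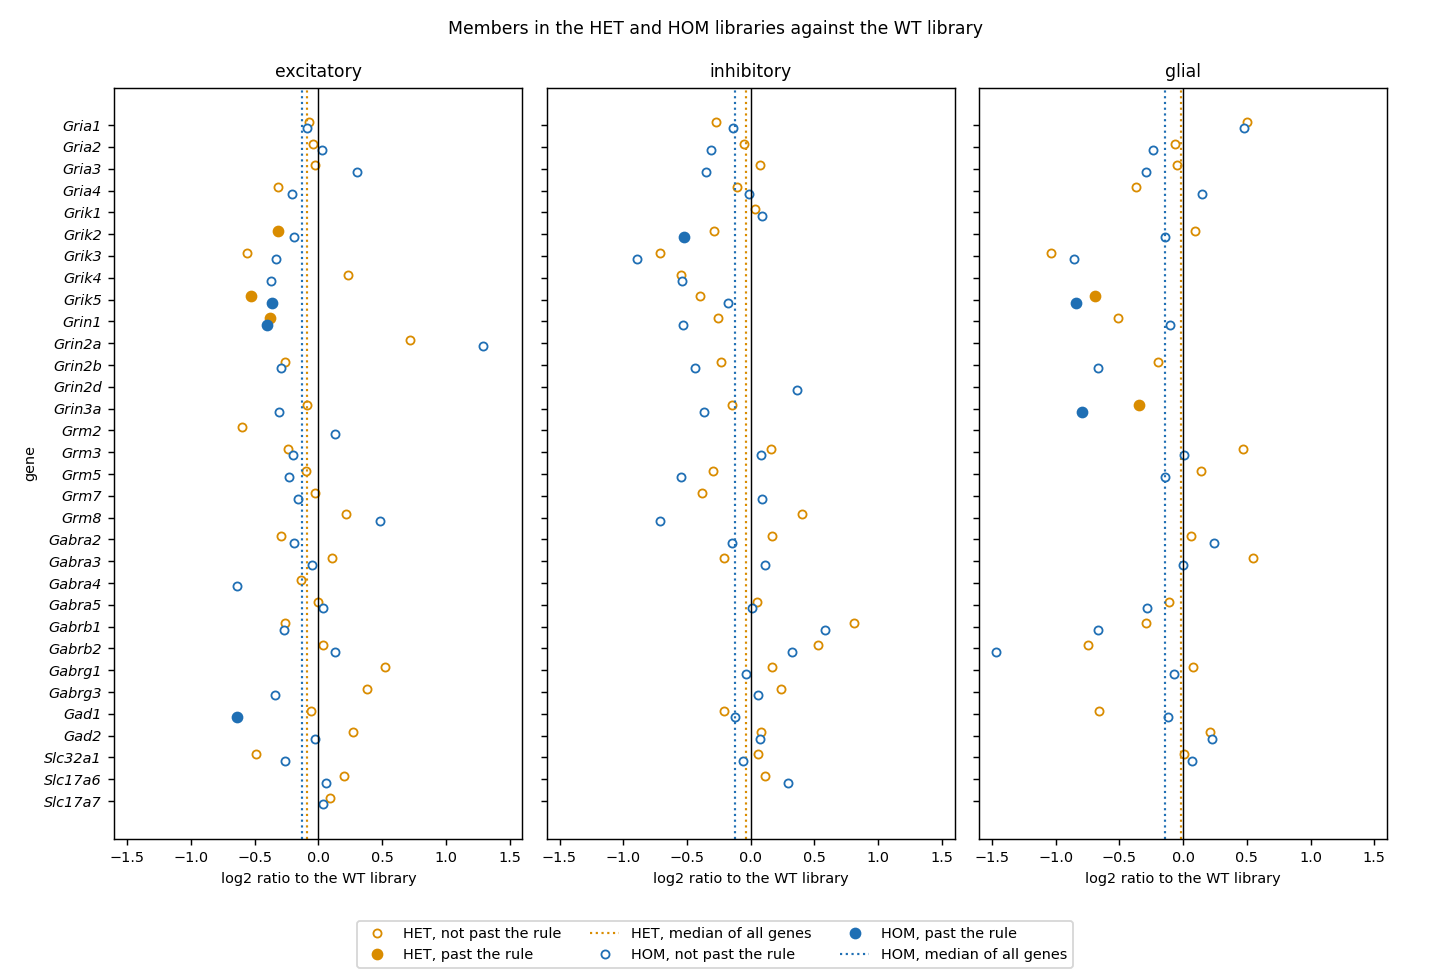
Log2 ratio of each gene's class level in the HET and HOM libraries to that in the WT library (x axis) for the 32 genes (y axis) in excitatory, inhibitory and glial cells; filled points passed the rule and dotted lines mark the median of all genes. Filled points number 5 for HET and 6 for HOM, each of them to the left of 0, and open points lie on both sides.

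Grik5 (chr7:25009849-25072346, minus strand, mm10) passed the rule in 4 of the 6 class comparisons, more than any other member. Its excitatory class level was 82.1 in WT against 56.9 and 64.2 in the HET and HOM libraries, ratios of 0.692 and 0.782 (log2 -0.53 and -0.36), with both mutant libraries below WT in 4 of 4 types. In glia it stood at 71.4, 44.4 and 39.9, ratios of 0.622 and 0.559 (log2 -0.69 and -0.84). In inhibitory neurons the levels were 75.9, 57.7 and 66.8 and the types disagreed: Int3 [11-P] went from 95 to 42.4 and 62.0 and Int2 [14-P] from 95.9 to 57.6 and 75.2, whereas Striatal inh2 [7-P] had 61.0, 78.2 and 86.3. Int3 [11-P] had a sum below 50 in the HET comparison and did not count there. Counting all types with a sum of at least 50, Grik5 lay below WT in 9 of 10 in HET and 10 of 12 in HOM. Among excitatory cells with at least 2000 molecules Grik5 was 88.4, 52.8 and 57.7, and among such glia 89.9, 45.1 and 41.1, so WT lay highest in the deep cells as well. Under median-of-ratios scaling the log2 ratio in excitatory neurons was -0.44 in HET and -0.23 in HOM, where the call was lost.

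The share of cells above 0 for Grik5 was also highest in the WT library in excitatory neurons and in glia. In excitatory neurons 7.96% (7.17 to 8.81), 5.60% (4.99 to 6.27) and 6.86% (6.16 to 7.62) of cells were above 0. Of the glia, 6.62% (5.55 to 7.81), 4.72% (3.92 to 5.62) and 4.09% (3.43 to 4.82) were above 0. The intervals hold counting error over the cells of 1 library each and do not compare genotypes. In microglia and endothelial cells Grik5 was above 0 in 1.96%, 1.42% and 1.08%.

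Grin1 (chr2:25291181-25319187, minus strand) also fell in excitatory neurons, from 52.6 to 40.4 in HET and 39.8 in HOM (log2 -0.38 and -0.40). LayerII-IV [1-P] went from 32 to 22.1 and 23.8, while LayerII-IV [4-P] moved little, from 45.2 to 42.5 and 42.3. LayerV-VI [12-P] went from 76.9 to 40.3 and 47.1, but its sum in the HET comparison was below 50, so it did not count there. In the deep cells Grin1 was 50.9, 37.4 and 39.7, and under median-of-ratios scaling both calls were lost. The share of excitatory neurons above 0 was 4.96% (4.33 to 5.65), 4.14% (3.61 to 4.72) and 4.19% (3.63 to 4.80), with overlapping intervals.

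Grin2b, the more abundant partner, lay below WT without passing the rule, which could not be applied to it in HOM glia. Its class level was 367, 308 and 301 in excitatory neurons, 206, 175 and 152 in inhibitory neurons and 87.1, 76.1 and 54.9 in glia. LayerV-VI [12-P] went the other way, with 381, 407 and 436, while the other excitatory types had 590, 480 and 489 in LayerV-VI [18-P], 321, 248 and 222 in LayerII-IV [4-P] and 213, 181 and 164 in LayerII-IV [1-P]. Grin2b in microglia and endothelial cells was 66.6, 36.4 and 38.7, so its free-RNA level was also lower in the mutant libraries.

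**Figure D5:**
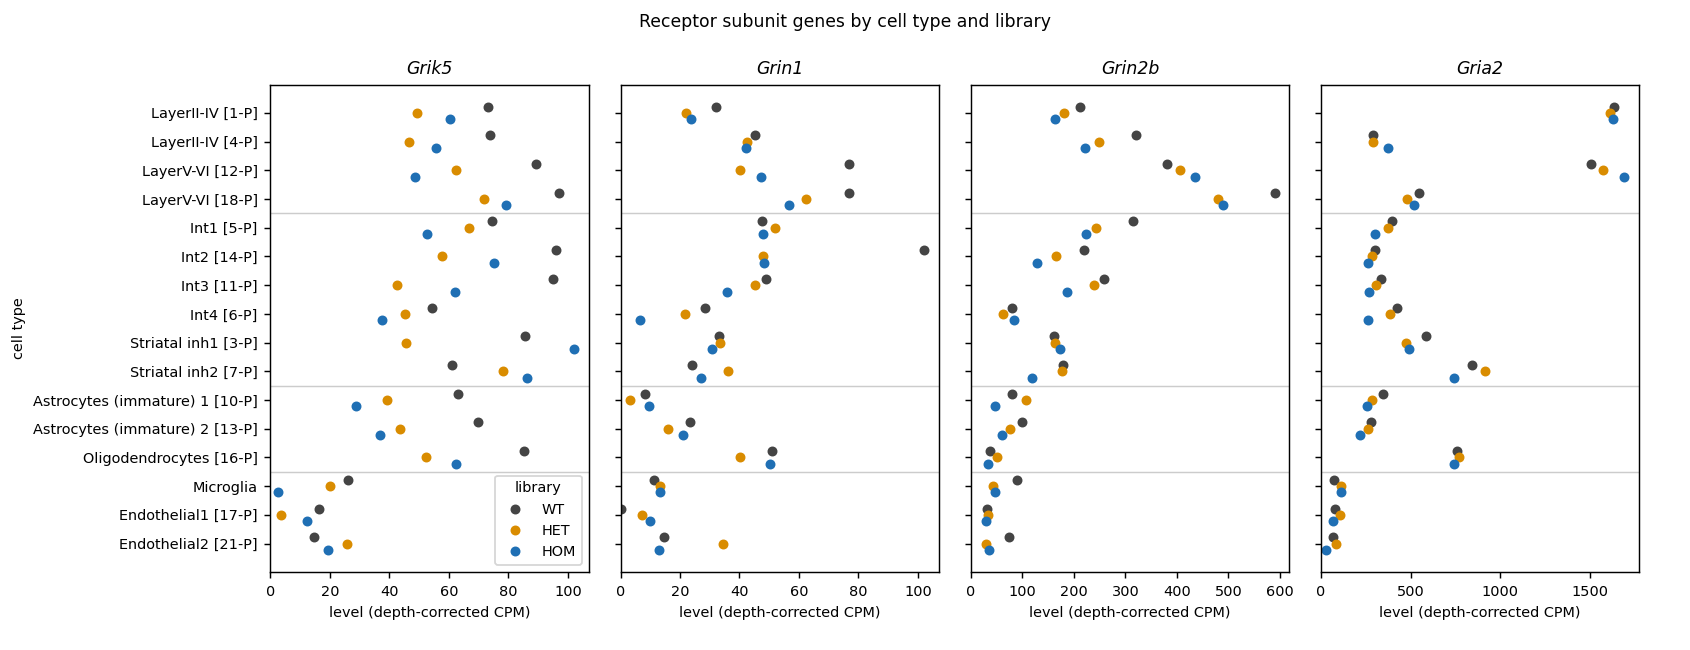
Level in depth-corrected CPM (x axis) of Grik5, Grin1, Grin2b and Gria2 in 16 cell types (y axis), 1 point per library. WT points lie to the right of the HET and HOM points for Grik5 in the 4 excitatory and 3 glial types, and the 3 points nearly coincide for Gria2 in LayerII-IV [1-P].

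Grik2 was called in different classes in the 2 libraries. In excitatory neurons of HET it went from 32.5 to 26.0 (log2 -0.32, at the threshold), with 28.3 and 19.1 in LayerII-IV [1-P]; in HOM the type LayerV-VI [12-P] held 97.2 against 46.1 in WT, and the class level of 28.5 was not called. In inhibitory neurons Grik2 was 102, 83.6 and 71.1, called in HOM (log2 -0.52) with all 4 countable types below WT, among them Int1 [5-P] (213, 144 and 146) and Striatal inh1 [3-P] (152, 108 and 88.1). The share of inhibitory neurons above 0 for Grik2 was 8.89% (7.71 to 10.2), 9.31% and 8.64% (7.71 to 9.66), which did not separate the libraries. Grik3 lay below WT in all 3 classes, at 37.6, 25.4 and 29.9 in excitatory neurons, 44.5, 27.3 and 24.1 in inhibitory neurons and 18.8, 9.14 and 10.3 in glia. It had too few countable types in each class, so the rule could not be applied to Grik3.

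In glia Grin3a fell from 43.6 to 34.3 in HET and 25.2 in HOM (log2 -0.35 and -0.79). Astrocytes (immature) 2 [13-P] had 42.1, 33 and 20.9 and oligodendrocytes 78.4, 62.3 and 56.3. The shares of glia above 0 for Grin3a, 3.54% (2.76 to 4.46), 3.61% and 2.84% (2.30 to 3.46), overlapped. The summed level of astrocyte markers spanned 3501 to 20212 over the glial types in WT, 4683 to 22931 in HET and 5782 to 22627 in HOM, and its part in the Grin3a values was not tested.

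The 3 genes of GABA production showed no call in inhibitory neurons. Gad2 lay above WT in 5 of 6 inhibitory types in HET and 4 of 6 in HOM, with class levels of 439, 464 and 463. Gad1 (chr2:70553072-70602014, plus strand) was called lower in HOM excitatory neurons (16.2 to 10.4, log2 -0.64), but the share of these cells above 0 was 1.42% (1.09 to 1.82) in WT and 0.914% (0.662 to 1.23) in HOM against 0.980% (0.319 to 2.27) and 1.52% in microglia and endothelial cells. These Gad1 values are at background and are not read as expression. The summed level of cortical interneuron markers in the excitatory types spanned 89.0 to 116 in WT, 81.6 to 115 in HET and 25.8 to 101 in HOM, and its part in the Gad1 value was not tested.

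Gria2 differed little in excitatory neurons (1014, 989 and 1037). In inhibitory neurons it stood at 480, 464 and 386, and the HOM library lay below WT in 6 of 6 types, just short of the fold of the rule (log2 -0.31). In deep inhibitory cells Gria2 was 730, 667 and 550. Gria1 (269, 224 and 245) and Gria4 (152, 141 and 151) in inhibitory neurons passed no rule.

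Some members lay on the higher side without calls. Of 7 GABA-A subunit genes measured in inhibitory neurons, 6 lay above WT in HET and 5 in HOM, while 54.9% and 61.7% of all genes lay below. In excitatory neurons the subunit genes were 4 above and 4 below in HET and 2 above and 5 below in HOM, and in glia 3 and 3 in HET and 1 above and 5 below in HOM. Above WT in inhibitory neurons of both libraries were, among others, Gabrb2 (24.7, 35.6 and 30.7), Gabrb1 (8.75, 15.3 and 13.1) and Gabrg3 (41.2, 48.6 and 43.0). Gabrb2 and Gabrb1 had too few countable types there for the rule, and those of Gabrg3 disagreed. Grin2a, whose share of NMDA receptors grows after birth, was above 0 in 0.675%, 1.11% and 1.76% of excitatory neurons. In deep cells it was above 0 in 0.929% (0.447 to 1.70), 2.10% (1.43 to 2.96) and 3.35% (2.60 to 4.26). These intervals hold counting error over the cells of 1 library each and do not compare genotypes. No excitatory type reached a sum of 50 for Grin2a, so the rule could not be applied, and the deep microglia and endothelial cells held it in 0 of 137 cells (exact upper limit 2.66%), 1.56% and 0.364%.

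In glia Grm3 was 121, 167 and 122 and Grm5 99.5, 110 and 90.0, with HET highest for both. Each had 1 countable type there, so the rule could not be applied. The Grm3 background given above differed between the libraries as well. The vesicular glutamate transporter Slc17a6 in excitatory neurons was 60.5, 69.4 and 63.1 and Slc17a7 13.4, 14.3 and 13.7.

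Beyond the members, 50 other genes of the same pathways were fixed as one list, and 49 were in the table. They include further receptor subunits, glutamate and GABA uptake transporters, metabolic enzymes, chloride transporters, AMPA and kainate auxiliary subunits and synaptic scaffolds. In excitatory neurons 29 of 39 measured lay below WT in HET (median log2 ratio -0.27) and 32 of 39 in HOM (-0.28), where 60.5% and 61.9% of all genes did (medians -0.09 and -0.13). In inhibitory neurons these were 26 of 36 (-0.17) and 26 of 37 (-0.26), against 54.9% and 61.7% of all genes, and in glia 24 of 34 (-0.21) and 28 of 34 (-0.22), against 52.5% and 62.2%. Genes with transcripts longer than the upper quartile lay below WT more often than the list in each class. Their shares were 83.7% and 83.0% in HET and HOM excitatory neurons, 76.7% and 84.4% in inhibitory neurons and 72.1% and 84.6% in glia. The part of transcript length in the ratios of the listed genes was not tested. The rule could be applied to 30, 21 and 19 of the listed genes in HET excitatory neurons, inhibitory neurons and glia. Lower were 7, 1 and 5 of them, beside 19.0%, 9.16% and 9.35% of all genes called lower. Higher were 0, 1 and 1, beside 6.39%, 5.77% and 8.34% of all genes called higher. In HOM it could be applied to 32, 21 and 19 of the listed genes. Of these 10, 4 and 4 were lower, beside 24.6%, 16.3% and 19.7% of all genes called lower. In the other direction 2, 1 and 0 were higher, beside 10.4%, 8.97% and 11.5% of all genes, so higher calls did not exceed that background.

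Slc12a2, the chloride importer NKCC1 that keeps GABA depolarising in immature neurons, fell in excitatory neurons from 18.3 to 9.77 in HET and 8.23 in HOM (log2 -0.91 and -1.15). Slc12a5, the chloride exporter KCC2, also lay lower there, at 14.4, 8.05 and 9.54 (log2 -0.84 and -0.59). It had 1 countable type in each comparison, too few for the rule, and was chosen after its values were seen. The balance of chloride import and export was not tested. Nlgn2, the adhesion molecule of inhibitory synapses, fell from 88.0 to 63.2 and 63.5 in excitatory neurons, with 4 of 4 types lower in both. Of the AMPA receptor auxiliary subunit genes, Cacng3 was called higher in 3 comparisons and Cacng2 in HOM excitatory neurons only. Cacng4 fell in HOM excitatory neurons (126 to 99.2) and was chosen after its values were seen. Cacng3 went from 46.9 to 75.0 and 71.4 in inhibitory neurons (log2 0.68 and 0.61), and Cacng2 (34.2 to 49.0) and Cacng3 (12.7 to 24.7) rose in HOM excitatory neurons. In HET Cacng2 was not called, with 40.4 in excitatory neurons and 61.3 to 69.9 in inhibitory neurons, where 2 of 3 countable types were lower. In HET glia it went from 16.5 to 8.86, with too few countable types for the rule. Of the kainate receptor auxiliary subunit genes in inhibitory neurons, Neto2 fell from 140 to 106 in HET with 6 of 6 types lower and was 108 in HOM, not called, with 5 of 6 types lower. Neto1 fell from 138 to 95.8 in HOM and was 118 in HET, where it was not called.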

How the data were processed

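Single-cell RNA-seq of P0 mouse prefrontal cortex was analysed from the deposited gene-by-cell table, its cell table and GEO's labels. Reads were aligned by the authors with Cell Ranger 4.0.0 to mm10 and the cells were filtered and analysed with Seurat 4.0. The gene values deposited by the authors are whole numbers. Their totals per cell show a depth correction, whose step is not stated in the sources read, so the deposited values were treated as a score, not as raw counts: they total 825 to 1952 per cell, whereas the deposited molecule counts run from 499 to 17602, and the totals agreed in 617 of 36263 cells. The deposited mitochondrial percent and the fraction that gives the probability of a cell's label were used as the authors wrote them. Cell type names are the authors' transferred labels. The authors' own comparison tables, which hold log2 fold changes, p-values, adjusted p-values and fractions of cells, were not used. How the authors treated doublets is not stated in the sources read, and cells were not screened for them. Of the barcode sequences, 648 occurred in more than 1 library.

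Total molecules were 23288915, 27370206 and 36398283 in the WT, HET and HOM libraries. Samples were grouped by the genotype in the labels, and the 4 runs of a library were counted as 1. Values were summed per cell type and library and divided by the total. Class levels were standardised over cell types with weights from all 3 libraries. With depth-corrected values and 1 library per genotype no test was run, and differences are described by ratio, by the rule on class levels and cell types and by the share of all genes that meets it. Shares of cells carry exact Clopper-Pearson 95% intervals. All members could be named, and of the other pathway genes up to 4 per class and comparison. One result on a single gene is not reported here. The members and lists were chosen with earlier results of these data known. Alternatives were another scaling, other minimum sums and folds, crude sums, deep cells, cells with a Y-linked transcript, a label probability of at least 0.9 and fewer cell types. The scripts were tested on simulated data. Python 3.11.15 with NumPy 2.4.6, pandas 2.3.3, SciPy 1.17.1 and matplotlib 3.10.9 was used.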

Additional observations from a re-analysis of the deposited data

How the results depend on the processing

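No paired analysis was possible because each genotype was 1 library and its runs are not replicates, and leaving out a replicate was not possible for the same reason. The share of members below WT stayed within the exact 95% binomial interval of the main share in 71 of 78 recalculations. That interval is wide (47.2% to 82.7% in HET excitatory and 31.9% to 71.3% in HET inhibitory neurons). A turn of the majority direction can therefore still lie within it. The number of calls was equal or within 1.5-fold in 43 of 84. In the counts below, a percent in brackets is the share of all genes called in that direction. Scaling by median of ratios gave 43.3% below WT in HET excitatory neurons, with 50.4% of all genes there, and 47.6% in HOM glia. It called 1 of 18 members in HET excitatory neurons (12.1%) and 1 of 6 in HET glia (7.3%), both lower. Crude sums gave 47.6% in HOM glia. They called 1 of 18 in HET excitatory neurons (19.2%) and 1 of 6 in HET glia (9.5%), both lower. In HOM inhibitory neurons they called 2 of 16, both higher (Grik1 and Gabra3, 8.5%). Cells with at least 2000 molecules gave 88.2% and 80.0% below WT in HET excitatory neurons and glia, and 1, 1 and 0 calls in HET excitatory neurons, inhibitory neurons and glia, with 5 in HOM inhibitory neurons (Gria2, Grik2, Grin2b and Grm5 lower, Grik1 higher) and 1 in HOM glia (Gria2). Cells with a Y-linked transcript gave 87.5% and 81.2% in HOM excitatory and inhibitory neurons. Called lower were 1 of 3 in HET excitatory neurons (9.4%) and 0 of 1 in HET glia. In HOM excitatory neurons, inhibitory neurons and glia these were 1 of 2 (10.3%), 0 of 6 and 1 of 1 (10.1%). A minimum sum of 20 gave 5 calls each in HET excitatory neurons and glia and 7, 3 and 5 in the HOM classes, all lower but Grm3 and Gabrg3 in HET glia and Grin2a in HOM excitatory neurons, and a minimum of 200 gave 1 and 0 in HET and 1, 0 and 0 in HOM. A 1.5-fold rule gave 0 of 18 and 1 of 6 lower (2.1%) in HET excitatory neurons and glia. In HOM excitatory and inhibitory neurons it gave 1 of 16 lower (9.7%) and 0 of 16. The share of cells above 0 gave 1 of 18 (13.1%) and 1 of 6 (4.2%) in HET excitatory neurons and glia, both lower. It gave 0 of 16 in HOM inhibitory neurons. A label probability of at least 0.9 gave 1 of 12 in HET inhibitory neurons (Gabrg3, higher, 6.2%). It gave 1 of 5 lower in HET glia (8.4%) and 3 of 15 lower in HOM inhibitory neurons (16.1%). Totals without technical genes gave 3 of 16 lower in HOM inhibitory neurons (17.3%). The mean of values per cell gave 1 of 6 lower in HET glia (10.0%) and 2 of 16 lower in HOM inhibitory neurons (16.6%). The 3 types of unsure name (LayerV-VI [12-P], Int2 [14-P] and Astrocytes (immature) 1 [10-P]) were also left out. Of 15 then tested in HOM excitatory neurons, 4 were lower (27.7%) and 1 higher (11.6%), and in HOM inhibitory neurons 2 of 13 were lower (17.7%). Standardising over cell type and depth, a choice made after seeing the data, gave 4 of 16 in HOM inhibitory neurons (Gria2, Grik2, Grin1 and Grm5, all lower, 16.8%). Gria3 in HOM excitatory neurons was called higher under median-of-ratios scaling, in cells with at least 2000 molecules, at a label probability of at least 0.9, without the types of unsure name and by the share of cells. The cause of these movements was not tested.

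No call of a single gene changed direction. Over the recalculations the log2 ratio of Grik5 ran from -1.27 to -0.44 in HET and from -1.26 to -0.23 in HOM excitatory neurons, past the rule in 12 of 14 and 8 of 14, and that of Grin1 from -0.47 to -0.29 and from -0.45 to -0.06, past the rule in 6 of 14 and 9 of 14. Grik2 in HET excitatory neurons kept its call in 4 of 13. Depth limits the rare members, and counting intervals hold neither the spread between animals nor that between lanes.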
